A study of Mus musculus with 14 samples.

Results

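The interaction between Drp1 genotype and ischemia was examined in the superior mesenteric artery (SMA) of mice. It is the change from normal conditions to ischemia in Drp1 flox/+ mice minus the same change in Drp1 +/+ mice, on the log2 scale, so a value above 0 means that the estimate of the ischemic change was more positive in flox/+ mice. All 14 libraries of the 14 in the series entered the comparison, with 3 mice in Normal_Drp1 +/+, 3 in Ischemia_Drp1 +/+, 4 in Normal_Drp1 flox/+ and 4 in Ischemia_Drp1 flox/+. Every mouse was on the C57BL/6 background and 8 weeks old. The +/+ mice carried wild-type Drp1 on both alleles, and the flox/+ mice carried a flox allele beside a wild-type one. The labels name no Cre line, and the methods of the study describe heterozygous knockout mice made by genome editing, so whether 1 allele was inactive in these arteries is not known from the labels. Ischemic mice had an ischemia treatment, and normal mice had none. The treatment is given as 2 h in the labels and as a longer period in the text of the study. The methods of the study describe it as bleeding through a femoral artery, which is blood loss of the whole animal. Effects of that blood loss and of ischemia within the artery cannot be told apart. Whole SMA tissue was sequenced, so fewer cells of a type and less RNA per cell cannot be told apart. The methods of the study count the samples of each group as separate individuals, so each library is called a mouse below.

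Drp1 is the protein of the gene Dnm1l, a dynamin-like GTPase that is recruited from the cytosol to the outer mitochondrial membrane and constricts the organelle during fission. An artery short of blood supply can switch on stress-induced transcription factors, NF-kB targets such as adhesion molecules and cytokines, and metabolic genes. The fuel use of its mitochondria can shift as part of the response. An interaction test asks whether the genotype alters the size or the direction of that response, gene by gene, which is a different question from whether the genotypes or the conditions differ.

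Total counts were 25612646 to 40255851 per mouse, and 17693 of 46095 gene symbols had enough counts to be tested. The smooth muscle markers Acta2 and Myh11 stood at 3357 to 18598 and 2726 to 13667 counts scaled to library size (CPM), and the endothelial marker Pecam1 at 299 to 746 CPM, so the labelled artery was present in all 14 libraries. Brown adipocyte genes varied most within the normal +/+ mice: the sum of 10 markers, Ucp1 among them, was 189.9, 7804 and 1968 CPM in replicates 1, 2 and 3. Replicates 1 and 2 therefore stood at opposite ends, and values without them are given beside the results that they moved most. Replicate 3 was the only library labelled with sequencing lane 1, and the others carried lane 8, so for that mouse the lane and the animal cannot be told apart. The targeted gene Dnm1l (chr16:16312230-16358959, reverse strand, GRCm38) was at 63.8, 65.7 and 90.9 CPM in the normal +/+ mice, 81, 63.1 and 80.9 CPM in the ischemic +/+ mice, 54.8, 60.8, 57.9 and 62.2 CPM in the normal flox/+ mice and 72.6, 69, 76 and 60.0 CPM in the ischemic flox/+ mice. Each normal flox/+ mouse lay below each +/+ mouse of either condition, and the ischemic flox/+ mice overlapped with all other groups. The interaction of Dnm1l was 0.21 (log2, SE 0.23, 95% interval −0.30 to 0.71), and edgeR gave an adjusted p of 0.953.

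No gene passed the interaction test. A gene was called when edgeR's quasi-likelihood test gave a Benjamini-Hochberg adjusted p (FDR) under 0.05 and a fold change over 1.5, and this held for 0 of 17693 genes (0%), with a smallest FDR of 0.946. Before adjustment, 765 genes (4.32%) had a p under 0.05, of which 239 (1.35% of all genes) were above 0 and 526 (2.97%) below 0. The share of 4.32% is no excess, as a limit of 0.05 gives a share of about 0.05 when no gene has an interaction. DESeq2 on the same counts called 13 genes, and limma-trend called 0. The typical precision was low: the median standard error of the interaction was 0.57 and its 95% interval reached a median of 1.22 to either side on the log2 scale. It reached less than 1 to either side for 7253 genes (41%). For the other genes a difference of 1 log2 unit between the genotypes' responses lay inside the interval's reach and was not detectable with 3 or 4 mice a group. The interval is not adjusted for the number of genes, so a reach under 1 did not make such a difference callable. Kif21b, at −2.04 (95% interval −2.85 to −1.22), had an FDR of 0.946.

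The count at an unadjusted p under 0.05 leaned on single libraries. It was 2121 without replicate 1 of the normal +/+ mice, the library with the fewest brown adipocyte transcripts, of which 1193 were above 0 and 928 below 0, so the excess below 0 was not seen there. It was 1219 without replicate 4 of the normal flox/+ mice, and 908 without replicate 2 of the normal +/+ mice. In all 14 fits with 1 mouse left out, edgeR called 0 genes.

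The genes at an unadjusted p under 0.05 mostly had point estimates of opposite sign in the genotypes, which includes genes with an estimate near 0 in 1 genotype, such as Kif21b and Nr4a1. Of the 239 above 0, 182 had an ischemia estimate below 0 in +/+ and above 0 in flox/+ mice, 31 were above 0 in both and 26 below 0 in both. Of the 526 below 0, 456 were above 0 in +/+ and below 0 in flox/+ mice, 55 were below 0 in both and 15 above 0 in both. Part of this opposition follows from choosing genes by the difference of the estimates. The genotypes lay farther apart under normal conditions than after ischemia for 105 of the genes above 0 and for 318 of those below 0. Complete separation in opposite directions was rare. In 9 genes (0.0509%) each ischemic +/+ mouse lay above each normal +/+ mouse while each ischemic flox/+ mouse lay below each normal flox/+ mouse, and in 6 genes (0.0339%) the reverse held.

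The effects that the interaction subtracts came from different mice and can be set side by side. Ischemia changed 2 genes (0.0113%) in +/+ mice, Nfkbia and Icam1, and 52 genes (0.294%) in flox/+ mice, 33 of them higher and 19 lower. A call in 1 genotype and none in the other is no evidence of a difference between them. Across all genes tested, Pearson's r between the effects was 0.293 and Spearman's rho 0.32. Genes are not independent replicates and share library scaling within a mouse, so these are descriptions. The plot of the ischemia effects shows most genes in a cloud around 0, and the genes that responded to ischemia on average along the diagonal of equal effects. Those genes were picked by the mean of the plotted effects, which favours equal signs, so their place there is a description.

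**Figure D1:**
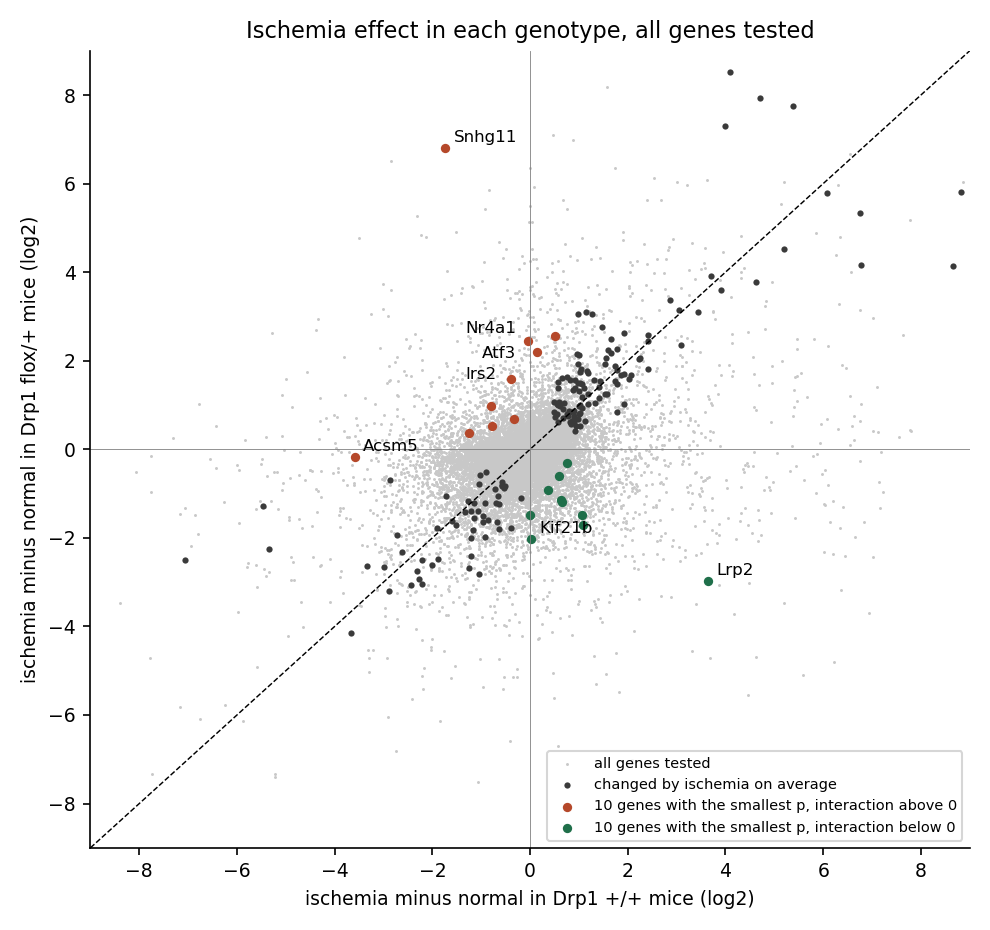
Ischemia minus normal (log2) in Drp1 +/+ mice (x axis) and in Drp1 flox/+ mice (y axis) for the genes tested. Each point is a gene, dark points are the 164 genes changed by ischemia on average over genotypes, coloured points are the 10 genes of smallest unadjusted interaction p in each direction, and the dashed line marks equal responses. 3 genes lie outside the axes. The dark points follow the dashed line (r = 0.877), but they were picked by the mean of the plotted effects, which favours equal signs and raises r. The coloured points lie off the line, and the coloured genes were chosen for that.

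Genes that responded to ischemia on average over the genotypes were the place where an altered response would be looked for first. There were 164 such genes (0.927%), 109 higher and 55 lower. In 163 of them the estimate had the same sign in both genotypes, and the exception was Kif21b. Picking genes by their average favours equal signs, so this count is a description. Signed by the direction of the response, the median interaction was 0.23, with a larger response estimate in flox/+ mice for 103 genes and in +/+ mice for 61. That median was −0.30 without replicate 1 and −0.10 without replicate 3 of the normal +/+ mice, against 0.44 without replicate 2, so its direction changed with the normal +/+ mice present. An unadjusted interaction p under 0.05 was found for 21 of these genes (12.8%, against 4.32% of all genes tested), and 16 of those 21 had the larger response in flox/+ mice. Both tests took the spread of each gene from the same fit, so genes picked by the first tend to small p in the second. The share is therefore a description and does not show more altered responses among these genes. For 34 of the 164 genes the whole 95% interval lay between −1 and 1, so that their responses differed between genotypes by less than 1 log2 unit within that interval.

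Nfkbia encodes the inhibitor IkB-alpha that NF-kB itself induces, and it was at 135, 105 and 119 CPM in the normal +/+ mice, 356, 467 and 402 CPM in the ischemic +/+ mice, 101, 68.5, 110.2 and 101 CPM in the normal flox/+ mice and 279.5, 339.9, 314 and 382 CPM in the ischemic flox/+ mice. Every ischemic mouse exceeded every normal mouse, and the ischemic levels of the genotypes overlapped. Its ischemia effect was 1.77 (SE 0.22) in +/+ and 1.79 (SE 0.19) in flox/+ mice, and the interaction was 0.018 (log2, SE 0.28, 95% interval −0.59 to 0.62). Icam1, the adhesion molecule that captures leukocytes, was at 33, 16.7 and 18.2 CPM in the normal +/+ mice, 314, 1090 and 272 CPM in the ischemic +/+ mice, 26.4, 35.2, 27.9 and 72.6 CPM in the normal flox/+ mice and 452, 444, 784 and 533 CPM in the ischemic flox/+ mice. Both genotypes rose without overlap, to levels that spanned each other. Its interaction was −0.85 (log2, SE 0.70, 95% interval −2.35 to 0.64). Sele, the endothelial selectin, had an interaction of −0.30 (log2, SE 1.15, 95% interval −2.78 to 2.19) and Csrnp1, a nuclear protein induced by stress, one of 0.51 (log2, SE 0.39, 95% interval −0.34 to 1.36). The phosphodiesterase gene Pde4b had 0.64 (log2, SE 0.43, 95% interval −0.29 to 1.57). Each of these 5 intervals held 0, and of them only that of Nfkbia lay within −1 and 1.

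Among the 5 leading genes lowered by ischemia, Lyl1 alone had an interval that excluded 0. Lyl1, a transcription factor of blood and endothelial cells, was at 7.94, 6.71 and 5.36 CPM in the normal +/+ mice, 3.38, 3.16 and 1.82 CPM in the ischemic +/+ mice, 9.28, 9.91, 10.2 and 9.42 CPM in the normal flox/+ mice and 2.23, 1.75, 1.14 and 0.882 CPM in the ischemic flox/+ mice. Ischemic mice lay below normal mice in both genotypes without overlap, and the ischemic flox/+ values reached further down. The effect was −1.26 (SE 0.36) in +/+ and −2.69 (SE 0.33) in flox/+ mice, with an interaction of −1.43 (log2, SE 0.47, 95% interval −2.44 to −0.42) at an unadjusted p of 0.00896 and an FDR of 0.946 in edgeR. The other 4 of the leading lowered genes had intervals that held 0: Myct1, an endothelial nuclear protein, at −0.59 (log2, SE 0.57, 95% interval −1.81 to 0.64), the chemokine receptor gene Cxcr4 at −0.64 (log2, SE 0.76), the splicing-related gene Rsrp1 at −0.74 (log2, SE 0.37, 95% interval −1.54 to 0.065) and AI467606 at 0.33 (log2, SE 0.83, 95% interval −1.46 to 2.12).

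The 10 genes of smallest unadjusted p in each direction, among those with a mean of at least 1 CPM, carried p values from 0.000108 to 0.0031 in edgeR and an FDR of 0.946 throughout. They were picked out of 17693 for that p, so their values below are descriptions. All 20 kept an unadjusted p under 0.05 in each of the 14 fits with a mouse left out. They also kept it in the fit with the level of brown adipocyte markers as a covariate. Those fits reuse the mice by which the genes were picked, so this is no independent check. The genotypes differed more under normal conditions than after ischemia in 8 of the 20.

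Among the 10 genes with an interaction above 0, the ischemia estimate was above 0 in flox/+ mice for 9 and in +/+ mice for 2. Nr4a1 encodes an orphan nuclear receptor that is switched on within minutes of many stimuli and lies at chr15:101254269-101274795, forward strand (GRCm38). It was at 406, 658 and 212 CPM in the normal +/+ mice, 261, 470.4 and 507 CPM in the ischemic +/+ mice, 100.2, 56.2, 114 and 74.7 CPM in the normal flox/+ mice and 345, 633, 418 and 471 CPM in the ischemic flox/+ mice. The normal flox/+ mice were below all other mice, and the 3 other groups overlapped. Ischemia raised Nr4a1 in flox/+ mice by 2.44 (SE 0.36) on the log2 scale (FDR 0.0191, edgeR), against an estimate of −0.044 (SE 0.40) in +/+ mice. The interaction was 2.48 (log2, SE 0.54, 95% interval 1.33 to 3.63), and it ranged over 2.07 to 2.80 with 1 mouse left out.

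Atf3, a stress-induced factor of the ATF/CREB family (chr1:191170296-191218039, reverse strand), was at 36.1, 31.7 and 20 CPM in the normal +/+ mice, 41.1, 33.8 and 21.4 CPM in the ischemic +/+ mice, 23.1, 14.9, 17.3 and 13.3 CPM in the normal flox/+ mice and 41.7, 112, 80.9 and 81.6 CPM in the ischemic flox/+ mice. Each ischemic flox/+ mouse exceeded each other mouse, 1 of them barely and 3 by a wide gap, and the other 3 groups overlapped. Atf3 rose in flox/+ mice by 2.21 (SE 0.32) (FDR 0.0132, edgeR) and had an estimate of 0.13 (SE 0.35) in +/+ mice, for an interaction of 2.07 (log2, SE 0.47, 95% interval 1.07 to 3.08).

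The promoters of Nr4a1 and Atf3 are shown because both genes belong to the immediate early class, whose CREB and ATF factors recognise the letters TGACG. The 250 bases before 1 RefSeq start of each gene are given 5′ to 3′ on the gene's strand, from RefSeq on GRCm38.p6, with each match to TGACG or its reverse complement CGTCA in capitals. They lie at chr15:101266596-101266845 on the forward strand and at chr1:191183334-191183583 on the reverse strand. Both windows lie inside the gene's outer bounds given above, as the transcript start that RefSeq gives here is not the outermost one.
Nr4a1: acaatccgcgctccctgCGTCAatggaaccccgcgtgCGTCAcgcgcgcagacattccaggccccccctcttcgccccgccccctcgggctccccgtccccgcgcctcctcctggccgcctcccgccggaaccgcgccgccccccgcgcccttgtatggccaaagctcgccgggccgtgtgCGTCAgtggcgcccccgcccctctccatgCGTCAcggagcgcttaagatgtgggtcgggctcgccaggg
Atf3: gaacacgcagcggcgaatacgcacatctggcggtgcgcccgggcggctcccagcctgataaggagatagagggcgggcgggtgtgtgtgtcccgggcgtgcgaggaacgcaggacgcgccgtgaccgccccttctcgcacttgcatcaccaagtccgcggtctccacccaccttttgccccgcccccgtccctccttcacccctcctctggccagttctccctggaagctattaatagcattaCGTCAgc
Nr4a1 held 4 matches and Atf3 1. A match on either strand was found for 5 of the 10 genes above 0 (Nr4a1, Atf3, Bcl6, Ing3 and Taf5l), for 0 of the 8 genes below 0 that had an entry, for 15 of 26 immediate early genes, and for 19.8% of 27025 genes with a promoter entry. Matches are letters in a window and are not binding sites, and the genes were chosen with their values known.

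Irs2, an adaptor of the insulin receptor (chr8:10984681-11008458, reverse strand), was at 124, 105 and 60.9 CPM in the normal +/+ mice, 72.9, 96.4 and 52.5 CPM in the ischemic +/+ mice, 47.4, 33.9, 49 and 30.3 CPM in the normal flox/+ mice and 87.7, 137, 153 and 107 CPM in the ischemic flox/+ mice. The normal flox/+ mice again formed the lowest group, below each other mouse, and the ischemic flox/+ mice overlapped with the normal +/+ mice. Irs2 rose with ischemia in flox/+ mice by 1.59 (SE 0.28) (FDR 0.0286, edgeR), the estimate in +/+ mice was −0.39 (SE 0.31), and the interaction was 1.98 (log2, SE 0.41, 95% interval 1.09 to 2.87).

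Bcl6, a transcriptional repressor of inflammatory genes (chr16:23965052-23988852, reverse strand), was at 78.5, 46.7 and 73.8 CPM in the normal +/+ mice, 32.7, 44 and 38.3 CPM in the ischemic +/+ mice, 25, 41.3, 50.2 and 46.4 CPM in the normal flox/+ mice and 60.5, 86.9, 107 and 68.2 CPM in the ischemic flox/+ mice. The +/+ mice went down and the flox/+ mice up without overlap in either genotype. Neither change passed the FDR limit, with estimates of −0.79 (SE 0.29) in +/+ and 0.99 (SE 0.25) in flox/+ mice, and the interaction was 1.78 (log2, SE 0.38, 95% interval 0.96 to 2.60). Ing3, a chromatin reader of a histone acetyltransferase complex, and Taf5l, a subunit of another such complex, separated in the same opposite way. Ing3 was at 15.5, 18.3 and 16.4 CPM in the normal +/+ mice, 7.91, 14.7 and 6.8 CPM in the ischemic +/+ mice, 9.87, 14.9, 13.1 and 13 CPM in the normal flox/+ mice and 17.1, 18.6, 20.7 and 17.1 CPM in the ischemic flox/+ mice, with an interaction of 1.30 (log2, SE 0.35, 95% interval 0.55 to 2.06). For Taf5l the levels were 18.4, 19.8 and 18.2 CPM in the normal +/+ mice, 16.5, 12.7 and 15.3 CPM in the ischemic +/+ mice, 11.1, 13.8, 15.7 and 19.9 CPM in the normal flox/+ mice and 27.5, 21.9, 22.3 and 25.1 CPM in the ischemic flox/+ mice, and the interaction was 1.02 (log2, SE 0.28, 95% interval 0.41 to 1.62).

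Acsm5 encodes a mitochondrial enzyme that activates medium-chain fatty acids, and it was at 2.92, 5.4 and 1.17 CPM in the normal +/+ mice, 0.334, 0.136 and 0.304 CPM in the ischemic +/+ mice, 1.3, 1.4, 1.33 and 2.64 CPM in the normal flox/+ mice and 1.25, 0.921, 1.84 and 1.92 CPM in the ischemic flox/+ mice. The ischemic +/+ mice were the low group, below each other mouse, and flox/+ mice overlapped between conditions. The interaction of Acsm5 was 3.42 (log2, SE 0.81, 95% interval 1.68 to 5.16). Tnfrsf21, a death receptor of the TNF receptor superfamily, showed a like arrangement at 16.8, 31.8 and 17.5 CPM in the normal +/+ mice, 8.03, 7.48 and 12.1 CPM in the ischemic +/+ mice, 17.1, 18.2, 17.2 and 32.2 CPM in the normal flox/+ mice and 31, 27.4, 26.3 and 23.7 CPM in the ischemic flox/+ mice, with 1.62 (log2, SE 0.41, 95% interval 0.73 to 2.50). Eva1a, a regulator of autophagy in the endoplasmic reticulum and lysosome, was at 10.5, 7.24 and 2.57 CPM in the normal +/+ mice, 6.57, 9.46 and 13 CPM in the ischemic +/+ mice, 2.82, 3.65, 2.21 and 2.88 CPM in the normal flox/+ mice and 17.9, 23.8, 13.5 and 13.3 CPM in the ischemic flox/+ mice. It rose in flox/+ mice by 2.56 (SE 0.39) (FDR 0.0206, edgeR), and its interaction was 2.05 (log2, SE 0.57, 95% interval 0.82 to 3.28). Snhg11, a long noncoding RNA that hosts small nucleolar RNAs, was at 0.767, 8.27 and 2.68 CPM in the normal +/+ mice, 1.28, 1.77 and 0.47 CPM in the ischemic +/+ mice, 0, 0, 0 and 0 CPM in the normal flox/+ mice and 0.357, 0, 0.351 and 0.943 CPM in the ischemic flox/+ mice. It had no read in any normal flox/+ mouse, so with 3 counts per library as the floor the mean of the ischemic flox/+ mice was at least 4.92-fold higher, a bound for counting error only. Of those ischemic mice, 1 was also at 0.

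**Figure D2:**
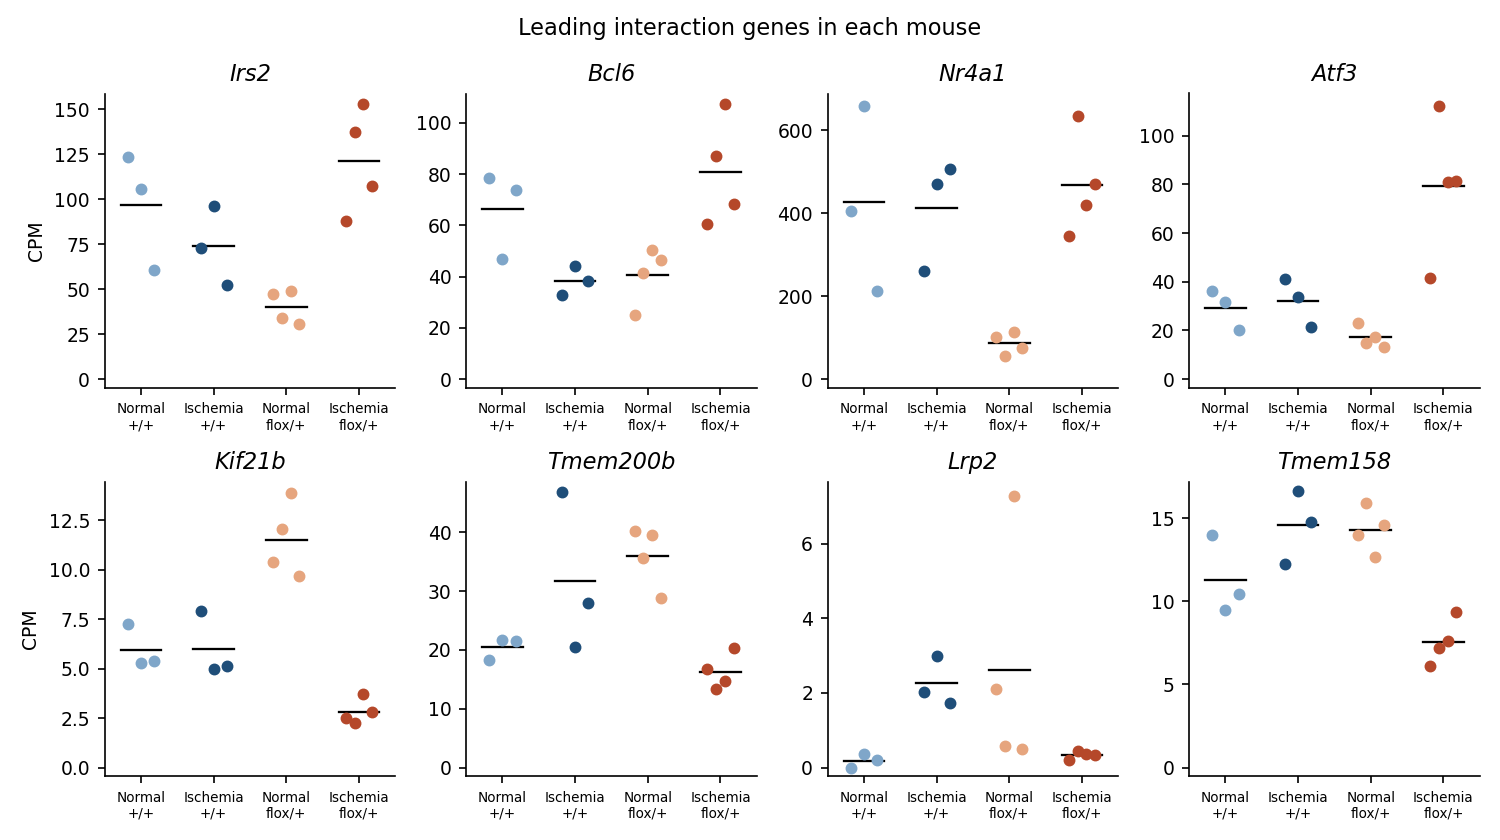
CPM (y axes, linear, with 0 at the foot) of the 4 genes of smallest interaction p above 0 (top) and below 0 (bottom) in the 14 mice. Each point is a mouse, left to right by replicate number within a group, and horizontal bars are group means. Nr4a1 and Irs2 were lowest in the normal flox/+ mice, Atf3 was highest in the ischemic flox/+ mice, and Kif21b was highest in the normal and lowest in the ischemic flox/+ mice.

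Genes with an interaction below 0 were led by Kif21b, a kinesin that carries cargo along microtubules (chr1:136131389-136177998, forward strand). Among the 10 genes below 0, the ischemia estimate was above 0 in +/+ mice for 9 and in flox/+ mice for 0. Kif21b was at 7.23, 5.29 and 5.36 CPM in the normal +/+ mice, 7.91, 5 and 5.11 CPM in the ischemic +/+ mice, 10.4, 12.1, 13.8 and 9.66 CPM in the normal flox/+ mice and 2.5, 2.24, 3.71 and 2.83 CPM in the ischemic flox/+ mice. The normal flox/+ mice formed the highest and the ischemic flox/+ mice the lowest group without overlap with any other, and the +/+ mice lay between them in both conditions. Kif21b fell with ischemia in flox/+ mice by 2.03 on the log2 scale (SE 0.25, FDR 0.0063, edgeR), the estimate in +/+ mice was 0.011 (SE 0.28), and the interaction was −2.04 (log2, SE 0.38, 95% interval −2.85 to −1.22), the smallest p of all genes at 0.000108. With 1 mouse left out it was −2.20 to −1.79.

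Tmem200b, a membrane protein of little known function (chr4:131921771-131923140, forward strand), was at 18.3, 21.6 and 21.5 CPM in the normal +/+ mice, 46.9, 20.5 and 27.9 CPM in the ischemic +/+ mice, 40.2, 35.6, 39.5 and 28.8 CPM in the normal flox/+ mice and 16.7, 13.3, 14.7 and 20.4 CPM in the ischemic flox/+ mice. Normal flox/+ mice were above normal +/+ mice and, after ischemia, flox/+ mice were below +/+ mice, each without overlap. The interaction was −1.78 (log2, SE 0.36, 95% interval −2.55 to −1.01). Tmem158, a membrane protein induced by Ras signalling (chr9:123259053-123260764, reverse strand), was at 14, 9.48 and 10.5 CPM in the normal +/+ mice, 12.3, 16.7 and 14.8 CPM in the ischemic +/+ mice, 14, 15.9, 12.7 and 14.6 CPM in the normal flox/+ mice and 6.12, 7.22, 7.6 and 9.39 CPM in the ischemic flox/+ mice. The ischemic flox/+ mice lay below each other mouse, and the interaction was −1.28 (log2, SE 0.30, 95% interval −1.92 to −0.64). Calhm2, a calcium homeostasis modulator, was at 9.71, 5.97 and 11.3 CPM in the normal +/+ mice, 8.57, 7.79 and 10.6 CPM in the ischemic +/+ mice, 15.1, 15.1, 10.7 and 9.33 CPM in the normal flox/+ mice and 5.05, 4.67, 4.27 and 4.07 CPM in the ischemic flox/+ mice. The ischemic flox/+ mice were again the lowest group. Calhm2 fell in flox/+ mice by 1.48 (SE 0.25, FDR 0.0246, edgeR), with an interaction of −1.47 (log2, SE 0.37, 95% interval −2.27 to −0.68).

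Lrp2, the endocytic receptor megalin of epithelia (chr2:69424340-69586065, reverse strand), was at 0, 0.355 and 0.189 CPM in the normal +/+ mice, 2.04, 2.99 and 1.74 CPM in the ischemic +/+ mice, 2.12, 0.59, 7.3 and 0.491 CPM in the normal flox/+ mice and 0.208, 0.43, 0.351 and 0.334 CPM in the ischemic flox/+ mice. Its +/+ mice went up and its flox/+ mice down without overlap, from low levels and with 1 normal flox/+ mouse above the rest. The interaction was −6.61 (log2, 95% interval −9.84 to −3.38), and levels this close to the floor of 3 counts, about 0.0997 CPM in the normal +/+ mice, leave its size uncertain. Wnt2b, a secreted Wnt ligand, was at 4.96, 2.31 and 3.21 CPM in the normal +/+ mice, 8.57, 5.34 and 8.18 CPM in the ischemic +/+ mice, 3.95, 15.6, 10.8 and 5.61 CPM in the normal flox/+ mice and 3.33, 1.32, 3.22 and 3.07 CPM in the ischemic flox/+ mice. It separated in the same opposite directions, with an interaction of −2.79 (log2, SE 0.67, 95% interval −4.24 to −1.34). Cyp26b1, an enzyme that degrades retinoic acid, had −1.85 (log2, SE 0.49, 95% interval −2.91 to −0.78) and Spock2, a proteoglycan of the extracellular matrix, −2.56 (log2, SE 0.70, 95% interval −4.06 to −1.05). Igsf8, an immunoglobulin superfamily partner of tetraspanins, had −1.05 (log2, SE 0.28, 95% interval −1.65 to −0.45) and the centriolar gene Mphosph9 −1.18 (log2, SE 0.32, 95% interval −1.87 to −0.50).

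DESeq2 called 13 genes, 8 above and 5 below 0. Irs2 (adjusted p = 0.029), Bcl6 (0.0304), Nr4a1 (0.0186), Atf3 (0.0491), Acsm5 (0.0304), Snhg11 (0.0304), Kif21b (0.000764), Tmem200b (0.0122), Lrp2 (0.00438) and Tmem158 (0.0491) are described above. Ankrd61, an ankyrin repeat gene with a mean below 1 CPM, was at 0.059, 0.0355 and 0.189 CPM in the normal +/+ mice, 1.28, 1.22 and 1.08 CPM in the ischemic +/+ mice, 1.81, 0.73, 0.361 and 0.184 CPM in the normal flox/+ mice and 0.149, 0.154, 0.205 and 0.182 CPM in the ischemic flox/+ mice, with an adjusted p of 0.00463 in DESeq2 and an edgeR interaction of −5.76 (log2, SE 1.22, 95% interval −8.38 to −3.14). The calls of Gm36848 and of Cd8a, the T cell co-receptor, came with groups at 0. Gm36848 was at 0, 3.02 and 0 CPM in the normal +/+ mice, 0, 0 and 0 CPM in the ischemic +/+ mice, 0.395, 1.49, 0.361 and 1.56 CPM in the normal flox/+ mice and 0.208, 0.921, 0.702 and 0.851 CPM in the ischemic flox/+ mice, so that 1 normal +/+ mouse held all of that group's reads. For Cd8a the levels were 3.36, 0 and 0.377 CPM in the normal +/+ mice, 0, 0 and 0 CPM in the ischemic +/+ mice, 0, 0.112, 0 and 9.63 CPM in the normal flox/+ mice and 0, 0.246, 0.556 and 0.0608 CPM in the ischemic flox/+ mice, and the only mice above 1 CPM were 1 normal +/+ and 1 normal flox/+ mouse. edgeR gave Cd8a an unadjusted p of 0.255.

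**Figure D3:**
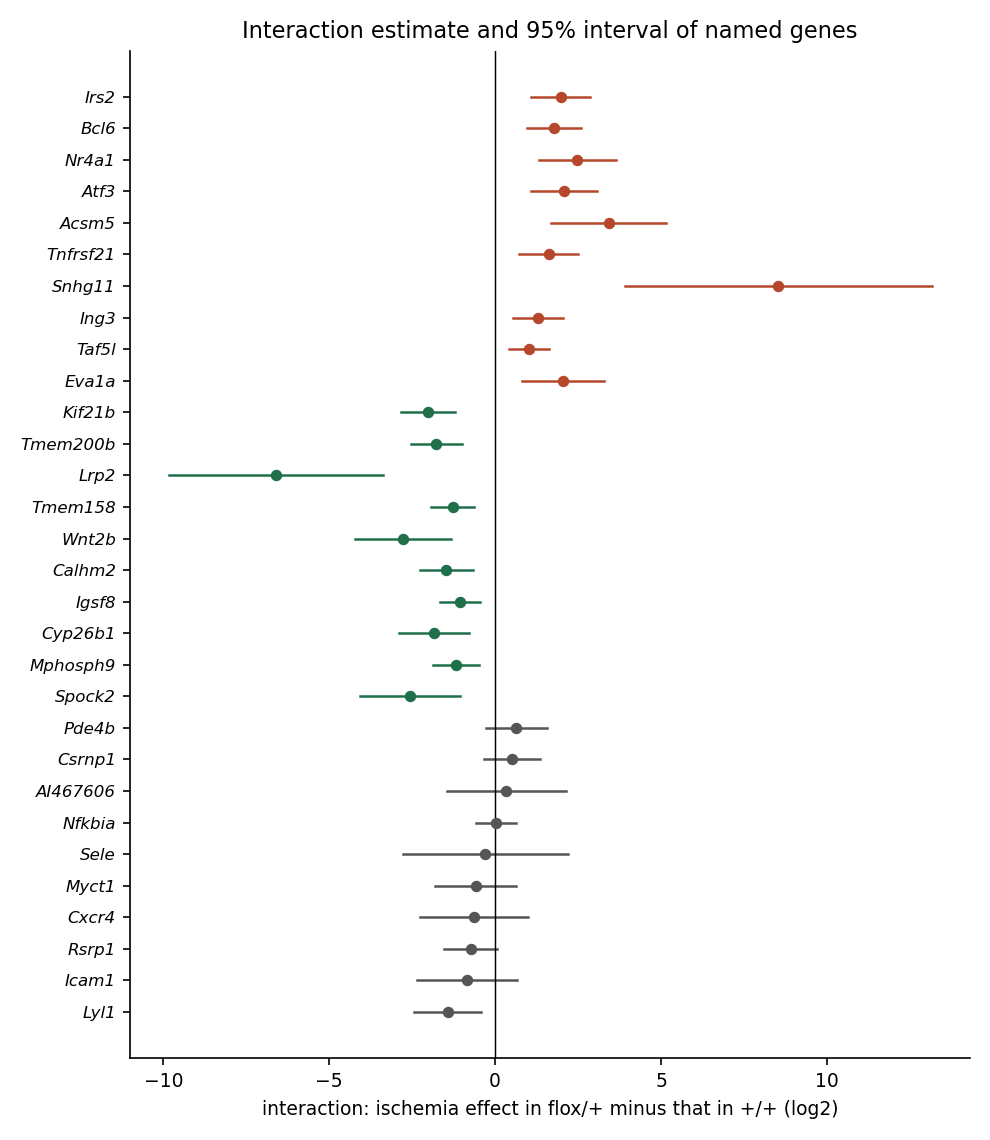
Interaction (x axis, log2) with its 95% interval for the 10 genes of smallest p above 0 (red), the 10 below 0 (green) and the 10 leading ischemia-responsive genes (grey). Points are edgeR estimates over 14 mice. The coloured intervals exclude 0 because the genes were chosen by p, and of the grey ones that of Lyl1 does.

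Gene lists that fit the tissue and the ischemia were read by the share of members at an unadjusted p under 0.05 and by the median interaction, beside 1.35% above 0, 2.97% below 0 and a median of −0.017 for all genes tested. No member of any list passed the FDR limit. Where a count is followed by a range, the range covers the 14 fits with 1 mouse left out and members in either direction. Over all genes the count at that p also moved in those fits, from 523 to 2121. The highest came without normal +/+ replicate 1, at 11.5% of 18512 genes, and list counts from that fit are to be read beside that share. Immediate early genes, the first wave of transcription after a stimulus, had 5 of 34 members at an unadjusted p under 0.05 above 0 and 0 below 0. These were Nr4a1, Atf3, Btg2, Nr4a2 and Nr4a3, of which the last 3 were named after their values were seen. The list's median ischemia effect was 0.44 in +/+ and 1.06 in flox/+ mice, and its median interaction was 0.40, or 0.25 with the 1 member that had a group at 0 set to the floor. With 1 mouse left out it was 0.20 to 0.68, lowest without normal +/+ replicate 1. The count was 3 (in 6 of the 14 fits) to 6 (in 2 of the 14 fits). The interactions were 1.24 (SE 0.46) for the antiproliferative gene Btg2, 1.83 (SE 0.82) for Nr4a2 and 1.95 (SE 0.89) for Nr4a3, both nuclear receptors related to Nr4a1.

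Glucocorticoid-responsive genes had 4 of 19 members above 0 at that p and 0 below 0. The count with 1 mouse left out was 1 (without normal +/+ replicate 1) to 5 (in 2 of the 14 fits). Pdk4, a kinase that shuts off pyruvate oxidation, was at 427, 1092 and 541 CPM in the normal +/+ mice, 191, 612 and 157 CPM in the ischemic +/+ mice, 286, 434, 408 and 1086 CPM in the normal flox/+ mice and 596, 2206, 1603 and 1404 CPM in the ischemic flox/+ mice. The ischemic +/+ mice included the lowest values and the ischemic flox/+ mice the highest, with overlap in both genotypes, and the interaction was 2.49 (log2, SE 0.84, 95% interval 0.69 to 4.30). Cdkn1a, which encodes the cell cycle inhibitor p21, was at 314, 73.7 and 93.9 CPM in the normal +/+ mice, 203, 451 and 299 CPM in the ischemic +/+ mice, 41.8, 24.6, 22.4 and 59.4 CPM in the normal flox/+ mice and 229, 400.4, 231 and 363 CPM in the ischemic flox/+ mice. It rose in flox/+ mice by 3.05 (SE 0.49) (FDR 0.0215, edgeR) from the lowest starting values of all groups, and the interaction was 2.06 (log2, SE 0.70, 95% interval 0.55 to 3.57). Normal +/+ replicate 1 held the high value of its group, and without it the Cdkn1a interaction was 1.16 at an unadjusted p of 0.0558 in edgeR. The median interaction of the list was 0.51, but −0.22 without replicate 1 of the normal +/+ mice. Clock genes had 2 of 18 members above 0 and 1 below 0. Their total of 3 ran from 0 (without normal +/+ replicate 1) to 10 (without normal +/+ replicate 2), where 4 were above 0 and 6 below 0. Their median interaction was −0.23 and ran from −0.66 to 0.032 with 1 mouse left out. Arntl, a core activator of the clock, was at 60.7, 1.78 and 30.7 CPM in the normal +/+ mice, 49.1, 37 and 40.8 CPM in the ischemic +/+ mice, 3.36, 1.71, 0.768 and 4.33 CPM in the normal flox/+ mice and 21.5, 30.8, 10.3 and 36 CPM in the ischemic flox/+ mice. The normal flox/+ mice and normal +/+ replicate 2 were low, and its interaction was 2.84 (log2, SE 1.13, 95% interval 0.41 to 5.26), or 1.95 without normal +/+ replicate 1 and 3.45 without replicate 2. The clock repressor Nfil3, which is also in the glucocorticoid list, had an interaction of 1.77 (log2, SE 0.73, 95% interval 0.21 to 3.33).

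Acute inflammatory genes had a median ischemia effect of 2.89 in +/+ and 1.79 in flox/+ mice, and 15 of 31 were called higher on average over genotypes, against 0.616% of all genes tested. Their interaction had 0 members above 0 and 1 below 0 at an unadjusted p under 0.05, or 1 (in 11 of the 14 fits) to 4 (without ischemic +/+ replicate 2). It had a median of −0.54, or −0.47 with the 4 members that had a group at 0 set to the floor. Without replicate 2 of the ischemic +/+ mice, which held the highest Icam1 and Sele values, the median was 0.48, and without replicate 4 of the normal flox/+ mice it was 0.013. Lif, a cytokine of the interleukin 6 family, was the 1 member below 0, at 0.295, 0.355 and 0.264 CPM in the normal +/+ mice, 1.64, 6.16 and 2.21 CPM in the ischemic +/+ mice, 1.92, 1.12, 2.24 and 0.368 CPM in the normal flox/+ mice and 1.16, 2.67, 2.54 and 1.85 CPM in the ischemic flox/+ mice. Ischemic +/+ mice lay above normal +/+ mice without overlap, and flox/+ mice overlapped between conditions, with each normal flox/+ mouse above each normal +/+ mouse. The interaction of Lif was −2.90 (log2, SE 0.89, 95% interval −4.82 to −0.97). The chemokine gene Ccl3 had no read in any normal +/+ mouse and no more than 1.28 CPM in any mouse.

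Nuclear genes of the mitochondrion had interaction estimates above 0 almost throughout. Of 82 nuclear oxidative phosphorylation genes, which encode respiratory chain and ATP synthase subunits and assembly factors, 80 had an estimate above 0, and 3 of them had an unadjusted p under 0.05. The count was 58 without normal +/+ replicate 1 and 2 without replicate 2, 1 above and 1 below 0. Of 74 mitochondrial ribosomal protein genes, 73 were above 0 and 6 had such a p, with 45 and 1 in the same fits. All genes tested were above 0 in 8649 of 17693 cases. The median ischemia effect of the oxidative phosphorylation genes was −0.97 in +/+ and 0.043 in flox/+ mice, with a median interaction of 1.01, and the mitochondrial ribosome had −0.68, 0.019 and 0.72. The members were measured in the same 14 libraries, so the number of equal signs is not a number of independent results. The 13 mitochondrially encoded genes, which are transcribed inside the organelle, had a median interaction of −0.11, with 0 members at an unadjusted p under 0.05.

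Brown adipocyte markers moved with these lists. Cox8b and Cox7a1 among the markers encode respiratory chain subunits. A link of the markers, or of the covariate below, to the oxidative phosphorylation list is therefore partly built in. The brown adipocyte list had a median interaction of 1.86, with all 10 of 10 estimates above 0 and 1 (Ppara) at an unadjusted p under 0.05. The count was 0 (in 8 of the 14 fits) to 6 (without normal +/+ replicate 1). Its summed level was 189.9, 7804 and 1968 CPM in the normal +/+ mice, 374, 1552 and 785 CPM in the ischemic +/+ mice, 1333, 4715, 1946 and 6970 CPM in the normal flox/+ mice and 1066, 5396, 4187 and 4813 CPM in the ischemic flox/+ mice. Ucp1, the defining uncoupling protein, ran from 40.2 to 4072 CPM over the 14 mice. Without replicate 2 of the normal +/+ mice, the library with the highest brown adipocyte sum, the median interaction was 0.24 for oxidative phosphorylation, 0.19 for the mitochondrial ribosome and 0.49 for the brown adipocyte list. Without replicate 1 of the same group it was 1.48, 1.08 and 2.47. With the brown adipocyte marker level as a covariate it was 0.25 for oxidative phosphorylation and 0.29 for the mitochondrial ribosome. In that fit 5 oxidative phosphorylation genes were above 0 and 1 below 0 at an unadjusted p under 0.05 (7.32%). The mitochondrial ribosome had 8 above 0 (10.8%), and all genes tested had 6.61% in either direction. With all mice and no covariate these shares were 3.66%, 8.11% and 4.32%. Brown adipocyte content and mitochondrial gene expression within the artery cannot be told apart in these libraries.

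**Figure D4:**
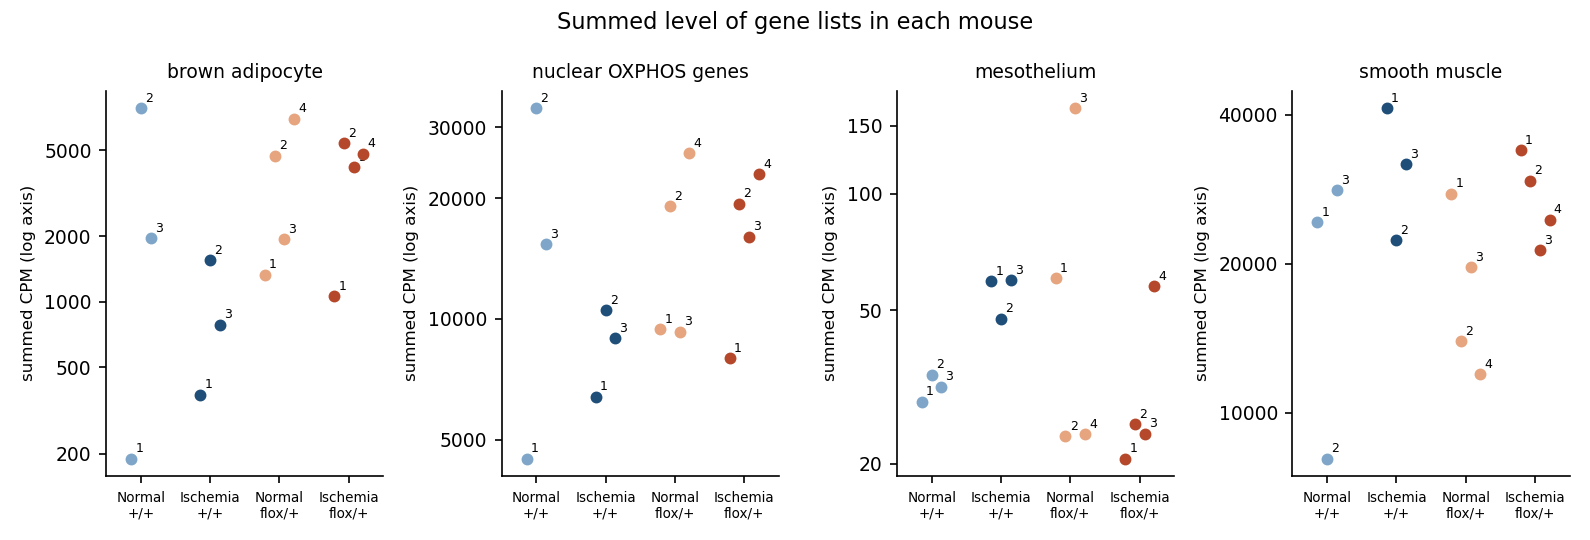
Summed CPM (y axes, logarithmic) of the brown adipocyte, nuclear oxidative phosphorylation (OXPHOS), mesothelium and smooth muscle lists in the 14 mice, with replicate numbers beside the points. The OXPHOS sum followed the brown adipocyte sum, with normal +/+ replicate 2 highest in both (7804 and 33544 CPM) and replicate 1 lowest (189.9 and 4487 CPM). The smooth muscle sum was lowest in replicate 2 (8077 CPM). The brown adipocyte markers include the respiratory chain genes Cox8b and Cox7a1.

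In the single members Mrpl47, Mrpl44 and Uqcrc1, replicate 2 was the highest and replicate 1 the lowest of the normal +/+ mice. Their other groups were arranged differently. Uqcrc1 was highest in ischemic flox/+ replicate 4 (27.3 CPM) and lowest in normal +/+ replicate 1 (1.83 CPM). For Mrpl44 the ischemic +/+ mice overlapped with normal mice of both genotypes. Mrpl47, a protein of the large mitochondrial ribosomal subunit, was at 7.11, 20.9 and 11 CPM in the normal +/+ mice, 5.59, 4.63 and 4.94 CPM in the ischemic +/+ mice, 7, 12.3, 7.34 and 15.6 CPM in the normal flox/+ mice and 10.3, 14.1, 8.77 and 11.1 CPM in the ischemic flox/+ mice. The ischemic +/+ mice were the lowest group, and normal +/+ replicate 2 was the highest of all mice. The interaction of Mrpl47 was 1.43 (log2, SE 0.51, 95% interval 0.32 to 2.54), or 0.95 (unadjusted p = 0.0588, edgeR) without that replicate. Mrpl44, of the same subunit, had 1.14 (log2, SE 0.45, 95% interval 0.17 to 2.12), or 0.78 without it. Uqcrc1, a core subunit of complex III, had 2.57 (log2, SE 0.89, 95% interval 0.65 to 4.49), or 1.57 (unadjusted p = 0.0662, edgeR) without it. Atp5s, a factor coupled to ATP synthase, was less dependent on that library, with 1.18 (log2, SE 0.40, 95% interval 0.33 to 2.03) and 0.98 without it. It was at 9.15, 10.7 and 4.53 CPM in the normal +/+ mice, so replicate 1 was not low for it. The brown adipocyte covariate gave interactions of 1.13 for Mrpl47, 0.81 for Mrpl44, 1.71 for Uqcrc1 and 1.17 for Atp5s. Their unadjusted p in edgeR was then 0.00859, 0.00375, 0.00307 and 0.0117, against 0.0152, 0.0249, 0.0123 and 0.0102 without the covariate.

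Fission and fusion genes, the machinery in which Drp1 acts, had 0 of 16 members at an unadjusted p under 0.05, and 4 without normal +/+ replicate 1 (3 above 0 and 1 below 0). Their median interaction was 0.31, or 0.051 with the brown adipocyte covariate. Inf2, a formin that assembles actin at fission sites, had −0.62 (log2, SE 0.30, 95% interval −1.26 to 0.026), and Mtfp1, a fission protein of the inner membrane, 2.09 (log2, SE 1.17, 95% interval −0.42 to 4.60), or 1.25 without normal +/+ replicate 2. The Drp1 receptors gave 0.22 (SE 0.26) for Mff, 0.40 (SE 0.30) for Mief1, 0.45 (SE 0.64) for Mief2 and −0.0036 (SE 0.21) for Fis1. Each of these estimates lay within 1.5 standard errors of 0. For the fusion GTPases the interactions were 0.42 (SE 0.37) for Mfn1, 0.87 (SE 0.58) for Mfn2 and 0.93 (SE 0.60) for Opa1. The remaining members were 0.19 (SE 0.31) for Mtfr1, −0.12 (SE 0.23) for Yme1l1, 0.061 (SE 0.30) for Oma1 and 0.079 (SE 0.33) for Spire1, with the low-abundance genes Gdap1 at 1.08 (SE 2.04) and Mtfr2 at 0.45 (SE 2.08). The standard errors of Fis1, Yme1l1 and Dnm1l were the smallest of the list, and those of Gdap1 and Mtfr2 the largest.

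In mitophagy and autophagy genes, 1 of 28 members, Atg12, was above 0 at an unadjusted p under 0.05, and 1, Tfeb, was below 0. The total was 1 (in 4 of the 14 fits) to 4 (without normal +/+ replicate 1). Atg12, a ubiquitin-like protein of autophagosome formation, was at 29.4, 44.6 and 37 CPM in the normal +/+ mice, 26.4, 33.7 and 26.1 CPM in the ischemic +/+ mice, 34.3, 32.9, 31.6 and 42.7 CPM in the normal flox/+ mice and 40.0, 47.3, 42.6 and 41.3 CPM in the ischemic flox/+ mice. The ischemic +/+ mice held the lowest values and overlapped with the normal mice of both genotypes, and its interaction was 0.64 (log2, SE 0.25, 95% interval 0.10 to 1.17). Tfeb, the master transcription factor of lysosomal genes, was at 33.4, 29.8 and 28.8 CPM in the normal +/+ mice, 48.9, 31.2 and 41.3 CPM in the ischemic +/+ mice, 48.4, 39.8, 41.4 and 35.4 CPM in the normal flox/+ mice and 32.2, 36.4, 32.6 and 40.4 CPM in the ischemic flox/+ mice, with an interaction of −0.62 (log2, SE 0.25, 95% interval −1.15 to −0.087). Mitochondrial apoptosis genes had 0 members above 0 and 1 below 0 of 25. The total was 0 (in 8 of the 14 fits) to 3 (without normal +/+ replicate 1). That member was Bcl2l11, the BH3-only death activator Bim, at 5.96, 6.18 and 3.06 CPM in the normal +/+ mice, 6.81, 7.45 and 4.72 CPM in the ischemic +/+ mice, 6.29, 4.88, 5.13 and 8.8 CPM in the normal flox/+ mice and 3.63, 3.26, 4.88 and 3.56 CPM in the ischemic flox/+ mice, with overlap between conditions in +/+ mice and an interaction of −1.03 (log2, SE 0.45, 95% interval −2.01 to −0.055). Bid, another BH3-only gene, had −1.25 (log2, SE 0.71, 95% interval −2.76 to 0.27).

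The mesothelium, fibroblast and collagen lists had medians below 0. Mesothelium markers, which mark the lining of the peritoneum over the artery, had 5 of 10 members below 0 at an unadjusted p under 0.05. The count was 1 (in 5 of the 14 fits) to 8 (without ischemic flox/+ replicate 4). All 10 estimates were below 0, with a median of −2.81. Their summed level was 28.9 to 34 CPM in normal +/+, 47.5 to 59.9 CPM in ischemic +/+, 23.5 to 167 CPM in normal flox/+ and 20.6 to 57.6 CPM in ischemic flox/+ mice, and normal flox/+ replicate 3 gave the highest value. Without that mouse the median was −1.43. Msln, a defining mesothelial marker, ran from 0 to 22.8 CPM over the 14 mice. Fibroblast markers had 3 of 10 members below 0 at that p. The count was 0 (in 8 of the 14 fits) to 7 (without ischemic +/+ replicate 1). They had a median of −1.73, which was −2.14 to −1.07 with 1 mouse left out. Collagens, the fibres of the adventitia and media, had 5 of 38 below 0 and 0 above. The total was 1 (in 2 of the 14 fits) to 10 (without ischemic +/+ replicate 1). They had a median of −0.60 that kept its sign in all 14 fits with a mouse left out (−1.01 to −0.38). Col8a2, a collagen of vascular basement membranes, was at 0.826, 1.7 and 1.66 CPM in the normal +/+ mice, 1.61, 4.46 and 9.53 CPM in the ischemic +/+ mice, 2.03, 12.9, 9.74 and 1.96 CPM in the normal flox/+ mice and 3.12, 2.15, 4.88 and 4.71 CPM in the ischemic flox/+ mice. Levels spread widely within the normal flox/+ group, and the interaction was −2.74 (log2, SE 1.01, 95% interval −4.91 to −0.58). Col4a4, a basement membrane chain, had −1.73 (log2, SE 0.66, 95% interval −3.15 to −0.31). Fibroblast markers summed to 2962 to 8670 CPM in normal +/+, 3713 to 16443 CPM in ischemic +/+, 2698 to 15304 CPM in normal flox/+ and 5233 to 6783 CPM in ischemic flox/+ mice, and the part of tissue makeup in the collagen values was not tested.

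Kinesin and dynein genes, which move cargo along microtubules, had a median interaction of −0.029, with 1 of 65 members above 0 and 3 below 0 at an unadjusted p under 0.05. The total was 2 (in 4 of the 14 fits) to 6 (without normal +/+ replicate 3). Kif21b was 1 of those below 0. Dnah2, a dynein heavy chain, was at 0.62, 0.639 and 0.528 CPM in the normal +/+ mice, 0.73, 1.8 and 0.58 CPM in the ischemic +/+ mice, 2.43, 1.15, 2.51 and 1.66 CPM in the normal flox/+ mice and 0.951, 0.645, 0.38 and 0.973 CPM in the ischemic flox/+ mice, with an interaction of −2.18 (log2, SE 0.79, 95% interval −3.87 to −0.49). The study names some genes of its down-up trend under enriched terms, mostly mitochondrial ones, and the 42 listed here are only that part of the trend. They were chosen on the same samples, without the normal flox/+ mice, and give no independent evidence of direction. They had 5 of 42 members above 0 at that p. The count was 0 (without normal +/+ replicate 2) to 30 (without normal +/+ replicate 1). They had a median of 0.96, which was 0.44 with the brown adipocyte covariate, where 9 members were above 0 at that p. The median was 0.38 without normal +/+ replicate 2. Qrsl1, a subunit of a mitochondrial transfer RNA amidotransferase, had 1.92 (log2, SE 0.78, 95% interval 0.23 to 3.60), or 1.24 without that mouse, and Mrpl47 and Mrpl44 were the others of smallest p. Those of the up-down trend, chosen in the same way, had 6 of 21 below 0. The count was 2 (without ischemic +/+ replicate 1) to 9 (without normal +/+ replicate 1). They had a median of −0.51. Besides Lrp2 these included Adnp, a chromatin factor, at 1.77, 1.78 and 1.89 CPM in the normal +/+ mice, 4.07, 3.33 and 2.15 CPM in the ischemic +/+ mice, 2.03, 1.66, 2.37 and 2.52 CPM in the normal flox/+ mice and 1.6, 0.461, 1.08 and 1.58 CPM in the ischemic flox/+ mice. Adnp separated in opposite directions without overlap, and its interaction was −1.67 (log2, SE 0.62, 95% interval −3.01 to −0.33). Slc26a3, an anion exchanger of gut epithelium, had −7.88 (log2, SE 2.48, 95% interval −13.21 to −2.55) from levels of no more than 4.09 CPM in any mouse. Krt8 and Krt19 of the up-down list are also mesothelium markers, and Slc26a3 is also in the kidney tubule and gut list. Normal flox/+ replicate 3, highest in the mesothelium sum, also held the highest Lrp2 (7.3 CPM) and Slc26a3 values. The part of tissue makeup in the up-down values was not tested.

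The remaining pathway lists had 0 or 1 member at an unadjusted p under 0.05 with all mice present. Without normal +/+ replicate 1 that count was 7 for antioxidant, 4 for glycolysis and hypoxia, 3 for heat shock and 3 for vasoconstriction and relaxation genes. That fit had 11.5% of all genes at such a p, beside 20% of the antioxidant and 13.3% of the glycolysis and hypoxia genes. Without ischemic +/+ replicate 2 the count was 8 for interferon-response genes, and 799 for all genes. Genes of vasoconstriction and relaxation had 1 of 28 members below 0 at an unadjusted p under 0.05, Bdkrb2, and 0 above, with a median of −0.25. Bdkrb2, the bradykinin receptor that relaxes vessels, had −1.55 (log2, SE 0.68, 95% interval −3.01 to −0.080). Heat shock and chaperone genes had 0 of 22 at that p and a median of 0.45, with Dnajb1, a co-chaperone, at 0.54 (log2, SE 0.28, 95% interval −0.053 to 1.14) and the stress factor Atf4 at 0.47 (log2, SE 0.30, 95% interval −0.18 to 1.12). Antioxidant genes had 0 of 35 and a median of 0.24. Gpx3, a secreted glutathione peroxidase, had 2.03 (log2, SE 1.15, 95% interval −0.44 to 4.49), which was 0.091 without normal +/+ replicate 2, and Nqo1, a quinone reductase, −0.60 (log2, SE 0.37, 95% interval −1.40 to 0.20). Glycolysis and hypoxia genes had 0 of 30 and a median of 0.24, with the muscle phosphofructokinase Pfkm at 0.63 (log2, SE 0.34, 95% interval −0.10 to 1.37) and hexokinase 2 at 1.29 (log2, SE 0.75, 95% interval −0.33 to 2.90). Interferon-response genes had 0 of 28 and a median of −0.37 that ran from −1.57 to 1.81 with 1 mouse left out, so its sign depended on the mice. Cytosolic ribosomal protein genes, which build the translation machinery outside the mitochondrion, had a median of −0.026. With 1 mouse left out it stayed between −0.064 and 0.082. Of 81 members, 1 was above 0 at that p, the muscle form Rpl3l. It was at 4.59 CPM in ischemic flox/+ replicate 4 and below 1 CPM in each other mouse. Smooth muscle markers had a median of 0.057 (−0.38 to 0.51 with 1 mouse left out) and endothelial markers one of 0.18 (−0.44 to 0.45), so both signs turned with single mice. Of 23 genes named above with an unadjusted p under 0.05 outside the 20 leading ones, responders and list members among them, 6 kept such a p in all 14 fits with a mouse left out.

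**Figure D5:**
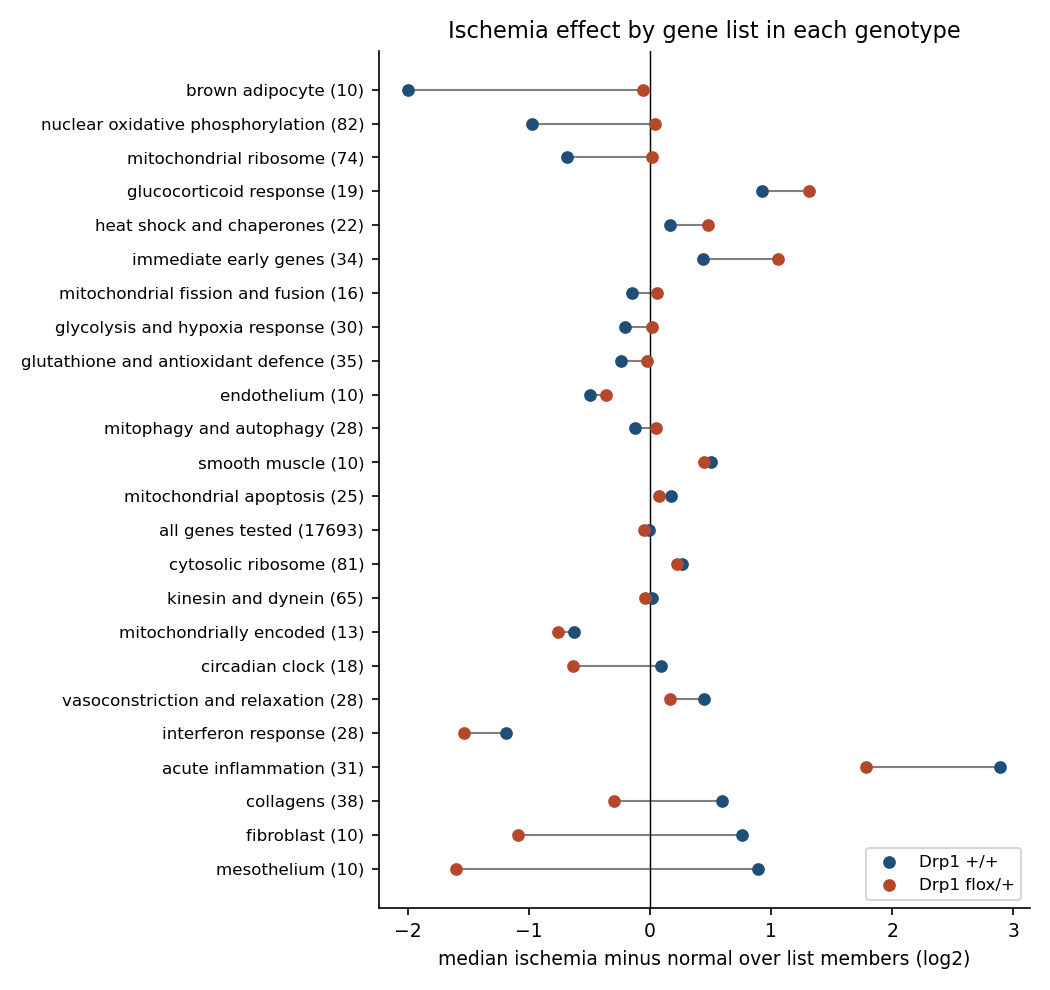
Median ischemia minus normal (x axis, log2) over the members of each gene list in Drp1 +/+ mice (blue) and Drp1 flox/+ mice (red), with the number of members tested in brackets and lists ordered by their median interaction. The median interaction ran from −2.81 for mesothelium to 1.86 for brown adipocytes and need not equal the distance between the points, as for acute inflammation (−0.54), and both points of all genes tested lie near 0.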

How the data were processed

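RNA-seq reads of the SMA from 14 mice were counted per gene symbol, and the authors deposited whole-number counts without normalization and without pooling replicates. Per the submitters' processing notes, HISAT2 2.0.4 and the mm10 build were used. The counting program, annotation and use of strand are not given in the sources used here, so reads of overlapping or near-identical genes could be split in unknown ways. All 14 columns were used.

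The tests used edgeR 4.0.16 in R 4.3.3 (filterByExpr by group, TMM scaling, glmQLFit and glmQLFTest with Benjamini-Hochberg adjustment, 1 fit of 4 groups), and CPM are counts scaled to the TMM-adjusted library size. The standard error is the log2 estimate over the square root of F, and intervals are 95%. DESeq2 1.42.0, limma-trend (limma 3.58.1), other scalings, filters of at least 10 counts in every mouse or none, no fold limit, the replicate number as a block, the mean log2 CPM (prior count 2) of brown adipocyte markers as a covariate, and each mouse left out in turn were the alternatives. Steps were tested on simulated data. Same-group libraries differed by more than sampling noise, so each counted as 1 mouse.

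Named were Dnm1l, genes called by edgeR or DESeq2, the 10 genes of smallest interaction p per direction with a mean of at least 1 CPM and no predicted or clone symbol, the 5 leading ischemia-responsive genes per direction, and 2 members of smallest p per pathway list (3 for lists chosen by the study). A gene that this rule names is not reported here. The comparison and the lists were chosen with earlier results of these data known, and mitochondrially encoded genes were matched by the symbols in the table. Positions are from GENCODE M21 (GRCm38), and promoters from RefSeq (GRCm38.p6). The study's variance-model F-test on log ratios was replaced by a count test.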

Additional observations from a re-analysis of the deposited data

Results flagged for a closer look

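In 11 of 140 groups of 4 flox/+ mice, over the 70 genes named, 1 mouse lay far from the other 3 by Dixon's test, which chance gives in about 1 of 20 groups. Replicate 4 of the normal flox/+ mice was the mouse apart for Acsm5 (2.64 CPM), Cd8a (9.63 CPM), Tnfrsf21 (32.2 CPM), Nfil3 (26.9 CPM), Oasl1 (6.2 CPM) and Gbp2 (1237 CPM), all high, and for Igsf8 (39.5 CPM), which was low. Genes of the same mouse are not independent. Replicate 1 of that group was high for Ccl3 (1.13 CPM) and Rpl27 (4.65 CPM). In the ischemic flox/+ mice, replicate 3 was high for Gbp2 (107 CPM) and replicate 2 low for Wnt2b (1.32 CPM).

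For 6 named genes the ischemic mice lay wholly above the normal mice in 1 genotype and wholly below them in the other. Over all genes tested this held for 0.0509% (higher in +/+) and 0.0339% (higher in flox/+), and most of the named ones were chosen for their interaction p. The interactions (log2) were −6.61 for Lrp2, −2.79 for Wnt2b, −1.67 for Adnp, 1.78 for Bcl6, 1.30 for Ing3 and 1.02 for Taf5l. The edgeR test of the difference gave each of them an adjusted p of 0.946, and DESeq2 called Lrp2 and Bcl6 of the 6.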

How the results depend on the processing

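The count of 0 genes with an interaction was the same under DESeq2's size factors in edgeR, upper-quartile factors, both other filters, no limit on the fold change, limma-trend, the replicate block, the brown adipocyte covariate and in the 14 fits with a mouse left out, and 13 with DESeq2. DESeq2 also gave 112 genes changed by ischemia in +/+ mice, 613 in flox/+ mice and 876 on average. limma-trend gave 4 in +/+ mice. The brown adipocyte covariate gave 313 in flox/+ mice and 439 on average, and 1170 interactions at an unadjusted p under 0.05. Without a low-count filter there were 1391 of the latter, over more genes. With 1 mouse left out, the counts ran from 0 to 3 in +/+ mice, 5 to 174 in flox/+ mice, 60 to 361 on average and 523 to 2121 for interactions at an unadjusted p under 0.05, and the median interaction of ischemia-responsive genes from −0.30 to 0.44. The cause of these moves was not tested. The Dnm1l interaction kept its sign in every fit, at 0.021 to 0.33 with a mouse left out.

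Same-numbered mice of different groups deviated together in 11 of 19 pairs (correlation over 0.1, range −0.15 to 0.32), and 6 of 12 libraries correlated best with their own number, with a mean correlation of 0.0892 for same-numbered and −0.030 for other pairs. Not every pair was over 0.1 and no label ties the numbers to a shared litter or day, so the mice were not treated as paired. The replicate block gave 0 interactions, 991 at an unadjusted p under 0.05, and 0 genes changed in +/+ mice, 48 in flox/+ mice and 156 on average.

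Of 69 named genes other than Dnm1l, 2 changed sign in a refit of all mice: Sele, at 0.93 with limma-trend and 0.093 with the replicate block, and Gbp2, at 0.36 with the block. With 1 mouse left out 9 changed sign: Gm36848 (−0.47 to 8.18), Nfkbia (−0.11 to 0.18), Icam1 (−1.20 to 0.13), Sele (−0.70 to 0.48), Myct1 (−0.98 to 0.15), AI467606 (−0.058 to 0.63), Oasl1 (−0.61 to 7.06), Gbp2 (−2.68 to 0.88) and ND3 (−0.042 to 1.07). The biological coefficient of variation was 0.522, and genes near the floor of 3 counts were also limited by depth.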

Other observations

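Markers of other cells that an SMA sample can hold had these median interactions (log2), beside −0.017 for all genes tested and with the range over fits with 1 mouse left out in brackets: 1.23 (−0.13 to 1.80) for adipocytes, −0.42 (−0.92 to −0.15) for macrophages, −0.83 (−1.90 to 0.73) for neutrophils, −0.71 (−1.52 to 0.81) for lymphocytes, −0.26 (−0.83 to 0.39) for red cells, 0.17 (−1.20 to 0.37) for skeletal muscle, −0.051 (−0.84 to 0.20) for nerve and Schwann cells, −0.71 (−1.20 to −0.13) for pancreatic acinar cells and -1.001 (−1.36 to −0.77) for kidney tubule and gut epithelium. The adipocyte median was lowest without normal +/+ replicate 2. The acinar median rested on 2 tested genes and the kidney tubule and gut median on 4, Slc26a3 among them. Without a low-count filter those medians were −1.47 over 5 genes and −2.32 over 7. Among the members of these lists, Cd3g, a T cell receptor chain, was above 0 at an unadjusted p under 0.05, with 4.57 (SE 1.69), and Slc26a3 was below 0. Both had low counts, and Cd3g was named after its value was seen.

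The summed red cell markers, haemoglobin genes among them, were 252, 191 and 107 CPM in normal +/+, 4.62, 109 and 76.1 CPM in ischemic +/+, 428, 446, 592 and 346 CPM in normal flox/+ and 187, 75.9, 152 and 83.9 CPM in ischemic flox/+ mice. Normal flox/+ mice lay above all other mice, and the +/+ conditions overlapped. The skeletal muscle gene Ckm reached 162 CPM in ischemic flox/+ replicate 4 and at most 10.8 CPM in the other groups. That mouse also held the highest values of Rpl3l (4.59 CPM) and of the muscle phosphofructokinase Pfkm (183 CPM). Cd8a ran from 0 to 9.63 CPM over the 14 mice.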
